A study of Rattus norvegicus with 6 samples.

Results

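NRF2, encoded by Nfe2l2, is the transcription factor that switches on the cell's enzymes against oxidants and reactive chemicals. The genes described here are Nfe2l2, its inhibitor Keap1, and 8 of the best known NRF2 target genes (Hmox1, Nqo1, Gclc, Gclm, Txnrd1, Srxn1, Osgin1 and Me1). They were taken by name from general knowledge of the pathway, not by a threshold on the measured values, but with earlier results of these data known. The deposited count tables list 9 of the 10 among 23139 genes, and all 9 had enough counts to be tested among 11977 genes. Srxn1 was not analysed here. The tables come from primary microglia of Wistar rats, prepared from cortices of pups at postnatal day 1, kept in mixed culture for 10 days, shaken off and sorted with CD11b/c microbeads. In the LPS condition, cells received 100 ng/mL lipopolysaccharide (LPS, from the outer wall of Gram-negative bacteria) with DMSO, the solvent of the drug. In the LPS/siponimod condition, cells received the same LPS together with 50 µM siponimod, a modulator of sphingosine-1-phosphate receptors. Each condition comprised 3 biological replicates sequenced as mRNA. Since LPS was present in all 6 libraries and cells without LPS were not analysed here, each comparison asks how siponimod altered the level of these genes in LPS-stimulated cells. The study's methods give 1 and 3 days of stimulation before cultures were fixed or lysed for RNA. Which duration applies to these libraries is not stated in the sources used here. Whether the pups of a culture were pooled is not given either.

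In unstressed cells, KEAP1 holds NRF2 in the cytoplasm and presents it to a CUL3 ubiquitin ligase, so that NRF2 is steadily degraded. Oxidants and electrophiles modify cysteines of KEAP1, NRF2 then accumulates, pairs with small MAF proteins and binds antioxidant response elements (ARE) near its target genes, from which the repressor BACH1 can be displaced. Much of this control acts on protein, and mRNA levels of Nfe2l2 and Keap1 do not measure it. In microglia and macrophages, the pathway is known for heme breakdown by heme oxygenase 1, for glutathione synthesis and for restraint of inflammatory gene expression.

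For 9 of the 10 genes, Hmox1 being the one without an entry, the RefSeq promoter table (build GRCr8) holds windows reaching from 250 bases before to 50 bases after the transcription start, 10 windows in all because Txnrd1 has 2. The core of the ARE, TGACNNNGC, was searched on both strands and was found for 4 genes, Nfe2l2, Gclm, Txnrd1 and Me1, against 12.1% of the 33469 windows in the table. The stretches around the 3 matches upstream of a start are shown because Gclm and Me1 were among the genes that rose with siponimod and Txnrd1 was not. The strand is that of the gene, the match is in capitals, and the sequence is from GRCr8, which is not the build of the count tables.
Gclm, chr2:213031938-213031996, plus strand: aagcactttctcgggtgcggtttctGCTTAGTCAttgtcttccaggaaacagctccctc
Txnrd1, chr7:22755949-22756007, minus strand: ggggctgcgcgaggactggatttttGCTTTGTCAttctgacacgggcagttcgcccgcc
Me1, chr8:96540378-96540436, minus strand: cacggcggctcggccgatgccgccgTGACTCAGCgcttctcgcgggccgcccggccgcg
In Gclm the core is on the opposite strand, where it reads TGACTAAGC, and lies between 172 and 164 bases upstream of the start. In the second Txnrd1 window it is also on the opposite strand (TGACAAAGC, between 78 and 70 bases upstream). In Me1 it is on the gene's own strand (from 167 bases upstream) and contains a match to the AP-1 motif TGANTCA, which 7.33% of all windows hold and which Srxn1 also has. The Nfe2l2 match, TGACGCCGC, lies downstream of the start, 38 to 46 bases after it. The C/EBP-ATF element TGATGNAA, which is known to be bound by ATF4 with its partners and which 3.98% of windows hold, was not found in any of the 10. These are matches of letters within short windows, and they do not show which factor binds.

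LPS replicates 1, 2 and 3 held 39484979, 38301365 and 38080379 counts in total, and LPS/siponimod replicates 1, 2 and 3 held 46643859, 43336006 and 38857441. A level is the number of counts of a gene per 1000000 counts of its library (CPM) after scaling by the trimmed mean of M values (TMM). A log2 fold change (log2 FC) is positive where the level was higher in LPS/siponimod and is given with its standard error (SE). The false discovery rate (FDR) is the p of edgeR's quasi-likelihood test after Benjamini-Hochberg adjustment over all 11977 genes. A gene is called a differentially expressed gene (DEG) if the FDR did not exceed 0.05 and the level differed 1.5-fold or more. With 3 libraries against 3, an exact permutation test of a single gene cannot go below p = 0.10.

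The cells carried the mRNA of microglia in every library. All 15 microglia and macrophage markers were listed, none was at or under 3 counts throughout, and their summed level was 12000, 9760 and 6660 CPM in the LPS libraries and 5150, 6460 and 3720 CPM in the LPS/siponimod libraries, Csf1r being the most abundant and Cx3cr1 being low, with 35 to 202 counts in the LPS and 3 to 21 in the LPS/siponimod libraries. Of the 15 markers, 3 were lower DEGs (Itgam, Aif1 and Cx3cr1), where 11.7% of all genes tested were. With the replicate number as a block in the fit, 8 of the 15 were lower and 1 was higher, where 16.4% of all genes were lower and 17.7% higher. In bulk RNA, fewer cells of a type and less of its RNA per cell cannot be told apart. LPS replicate 3 stood apart from the other LPS libraries. It held 515 counts of Olig1, 284 of Pdgfra and 240 of Olig2, genes of the oligodendrocyte lineage, and 88 of the astrocyte gene Gfap, against at most 5 counts of each in LPS replicates 1 and 2. LPS/siponimod replicate 3 held 17, 81, 40 and 1 counts of these genes, and it also held 209 counts of Nefm and 115 of Map2, genes of neurons, where LPS replicate 3 held 9 and 162 and no other library more than 3. Without Cnp, the most abundant gene of the list and one that fell with LPS/siponimod, the oligodendrocyte list summed to 5.37, 5.37 and 36.0 CPM with LPS and 11.4, 10.3 and 22.6 CPM with LPS/siponimod. Most of the latter was Mbp, a higher DEG (4.02, 4.18 and 2.26 CPM with LPS against 10.1, 8.89 and 15.9 CPM, edgeR FDR = 0.0172). Without Slc1a3, the astrocyte list summed to 2.08, 1.01 and 9.69 CPM with LPS and 1.29, 0.851 and 3.61 CPM with LPS/siponimod, and without Tubb3 the neuronal list summed to 0.054, 0.156 and 5.22 CPM and 2.11, 3.54 and 10.5 CPM. In LPS/siponimod replicates 1 and 2 nearly all of this was Snap25, which had 0, 1 and 1 counts with LPS against 94, 153 and 81 counts (edgeR FDR = 0.00539), whereas Map2, Nefm, Rbfox3 and Syt1 had at most 3 counts in both. Gjb6 was at 0 throughout, and Mog, Mag and Nefl never exceeded 3 counts. The endothelial and fibroblast list, led by Cdh5, summed to 160, 206 and 85.5 CPM with LPS and 47.9, 82.5 and 32.9 CPM with LPS/siponimod, and without Cdh5 to 42.9, 109 and 23.4 CPM against 15.7, 24.9 and 15.2 CPM. The single DEG of that list, the fibroblast gene Dcn, went the other way, with 3, 0 and 4 counts in the LPS libraries against 456, 49 and 178 counts (edgeR FDR = 0.0155). The part of these markers in the results below was not tested other than by leaving out libraries.

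Of the NRF2 genes, 5 were higher with siponimod and 4 were not called. Nqo1, Me1, Gclm, Nfe2l2 and Osgin1 rose, by between 1.56-fold and 4.77-fold, and in each of them the 3 LPS/siponimod libraries lay above the 3 LPS libraries. Hmox1, Gclc, Txnrd1 and Keap1 were not DEGs, and in each of them the conditions overlapped. The 5 DEGs were 55.6% of the 9 genes, where 13.6% of all genes tested were higher DEGs. Across all genes, 25.3% had every LPS/siponimod library above every LPS library and 24% had them all below. The 5 genes were also higher in each of the 3 same-numbered pairs, which held for 35.4% of all genes, while another 35.4% were lower in each pair. No gene among the 9 was a lower DEG by edgeR's quasi-likelihood test, DESeq2 or limma-voom, while 11.7% of all genes tested were lower DEGs by the first. Among 9 genes, 0 lower DEGs is not far from that share. At an unadjusted p under 0.05 none of the 9 was lower either, where 5234 of the 11977 genes tested had such a p in either direction. Of the 2 libraries with the most neural-lineage reads, leaving out LPS replicate 3 gave 5 higher DEGs among the 9 and leaving out LPS/siponimod replicate 3 gave 1. There were 0 without LPS replicate 2 or without LPS/siponimod replicate 1. Higher DEGs among all genes numbered 1941 and 762 in the first 2 of these fits, and 469 and 592 in the other 2. The median log2 FC of the 9 genes was 0.64, against -0.02 for all genes tested.

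**Figure D1:**
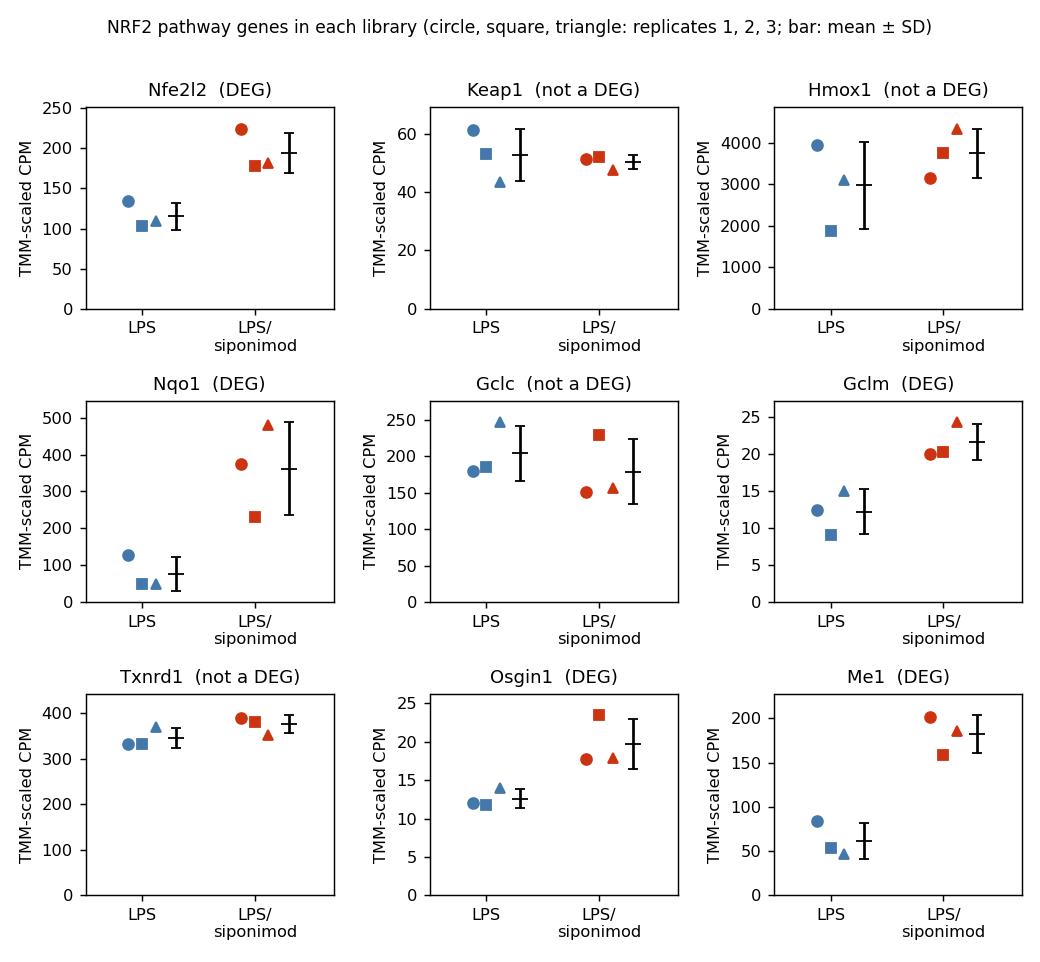
TMM-scaled CPM of the 9 genes in each library, with LPS in blue, LPS/siponimod in red, circles, squares and triangles for replicates 1, 2 and 3, and a bar for mean ± SD of 3 libraries. For Nfe2l2, Nqo1, Gclm, Osgin1 and Me1 every red point is above every blue point, whereas the colours overlap for Keap1, Hmox1, Gclc and Txnrd1.

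The regulator gene Nfe2l2 had 134, 103 and 109 CPM in LPS replicates 1, 2 and 3 and 224, 178 and 181 CPM in LPS/siponimod replicates 1, 2 and 3. Replicate 1 was the highest in both conditions, and the difference within the same-numbered pairs was nearly constant (log2 differences of 0.74, 0.79 and 0.74). Nfe2l2 thus increased from 115 ± 16.7 to 194 ± 25.5 CPM (SD of n = 3 libraries each, log2 FC 0.75 ± 0.16 SE, edgeR FDR = 0.0223). The FDR was 0.0955 without LPS replicate 2, 0.0916 without LPS/siponimod replicate 1 and 0.063 without LPS/siponimod replicate 3.

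Keap1, which encodes the inhibitor of NRF2, showed no comparable difference. Its levels were 61.4, 53.2 and 43.5 CPM with LPS and 51.3, 52.1 and 47.6 CPM with LPS/siponimod, so that the LPS/siponimod libraries lay inside the range of the LPS libraries. The log2 FC was -0.07 (95% interval -0.43 to 0.29, edgeR FDR = 0.759), which does not reach a 1.5-fold change in either direction. Without LPS replicate 1 its sign turned (log2 FC 0.07).

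Hmox1 encodes heme oxygenase 1, which cleaves heme into biliverdin, carbon monoxide and iron. Its reads were a large part of these libraries, on average 0.287% of all counts with LPS and 0.386% with LPS/siponimod. LPS replicates 1, 2 and 3 gave 146198, 72118 and 114698 Hmox1 counts and LPS/siponimod replicates 1, 2 and 3 gave 146918, 167100 and 177355, which is 3950, 1870 and 3090 CPM against 3160, 3740 and 4330 CPM. LPS replicate 1 exceeded 2 of the 3 LPS/siponimod libraries, and the pairs went in different directions (log2 differences of -0.32, 1.00 and 0.49). Hmox1 was not a DEG (log2 FC 0.33 ± 0.32 SE, edgeR FDR = 0.451). Its 95% interval extends from 0.742-fold to 2.14-fold. Depth was not the limit here, as the spread among the LPS libraries was 35.1% of their mean. In the 13 alternative fits the log2 FC of Hmox1 ranged from 0.10 to 0.62, and it was not a DEG in any of them.

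Nqo1, which encodes a quinone reductase that is a common readout of NRF2 activity, had the largest log2 FC of the 9 genes. It measured 129, 49.8 and 49.2 CPM with LPS and 374, 231 and 481 CPM with LPS/siponimod. LPS replicate 1 was more abundant than the other LPS libraries but stayed below the lowest LPS/siponimod library. On average Nqo1 rose from 76.0 ± 45.9 to 362 ± 126 CPM (SD of n = 3 libraries each, log2 FC 2.25 ± 0.49 SE, edgeR FDR = 0.0215). Without LPS replicate 1 the log2 FC was 2.89. The FDR was 0.0883 without LPS replicate 2, 0.0819 without LPS/siponimod replicate 1 and 0.0689 without LPS/siponimod replicate 3.

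Me1 encodes the cytosolic malic enzyme, which makes NADPH, the electron donor of the glutathione and thioredoxin systems. Its levels were 84.4, 53.2 and 46.5 CPM with LPS and 202, 159 and 186 CPM with LPS/siponimod. As for Nqo1, LPS replicate 1 was the highest LPS library, and the gap between the conditions was wider than either spread. Me1 rose from 61.3 ± 20.2 to 182 ± 21.4 CPM (SD of n = 3 libraries each), a log2 FC of 1.57 (standard error 0.25), with the smallest FDR of the 9 genes (0.0108, edgeR). In the order of p-values of all genes that were higher with siponimod it came at place 541, so that many other genes were separated more clearly. The FDR was 0.0598 without LPS replicate 2 and 0.0522 without LPS/siponimod replicate 1.

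The enzyme that starts glutathione synthesis, glutamate-cysteine ligase, is built of a catalytic subunit (Gclc) and a modifier subunit (Gclm), and only the second was a DEG. Gclm had 12.5, 9.01 and 15.0 CPM with LPS and 20.0, 20.3 and 24.3 CPM with LPS/siponimod (log2 FC 0.82 ± 0.22 SE, edgeR FDR = 0.0361). Gclc had 180, 185 and 247 CPM with LPS and 151, 230 and 156 CPM with LPS/siponimod. The Gclc values of the conditions overlapped, with 1 of 3 pairs higher (log2 FC -0.19, 95% interval -0.73 to 0.36, edgeR FDR = 0.549). As a description chosen after both subunits' values were seen, the number of Gclm counts per 100 Gclc counts was taken within each library. LPS replicates 1, 2 and 3 gave 6.95, 4.87 and 6.08, against 13.3, 8.85 and 15.6 for LPS/siponimod. All 3 LPS/siponimod libraries had the higher ratio (log2 difference 1.05). The call for Gclm was not firm, since its FDR was 0.0811 without LPS replicate 1, 0.0905 without LPS replicate 2, and 0.103, 0.0647 and 0.112 without LPS/siponimod replicates 1, 2 and 3.

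Txnrd1 encodes cytosolic thioredoxin reductase, which keeps thioredoxin reduced. It had 333, 333 and 370 CPM with LPS and 390, 381 and 352 CPM with LPS/siponimod. The replicates were tight, with a spread of 6.16% and 5.26% of the mean, yet LPS replicate 3 lay above LPS/siponimod replicate 3. The log2 FC was 0.12 (edgeR FDR = 0.516), and its 95% interval of 0.874-fold to 1.35-fold leaves out a change of 1.5-fold in either direction. Although the search found an ARE core upstream of this gene as well as upstream of Gclm and Me1, Txnrd1 was thus not a DEG.

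Osgin1 encodes an oxidative stress-induced growth inhibitor. It had 12, 11.7 and 14 CPM with LPS and 17.7, 23.4 and 17.9 CPM with LPS/siponimod. LPS/siponimod replicate 2 was the highest, and the lowest LPS/siponimod library still exceeded the highest LPS library. The rise was the smallest of the 5 (log2 FC 0.64 ± 0.17 SE, edgeR FDR = 0.0358), close to the 1.5-fold threshold. Osgin1 remained a DEG without LPS replicate 3 (FDR = 0.0293), but not without LPS replicates 1 (0.0853) or 2 (0.122), nor without LPS/siponimod replicates 1 (0.0921), 2 (0.0745) or 3 (0.0779). With no filter on low counts its FDR was 0.0536.

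**Figure D2:**
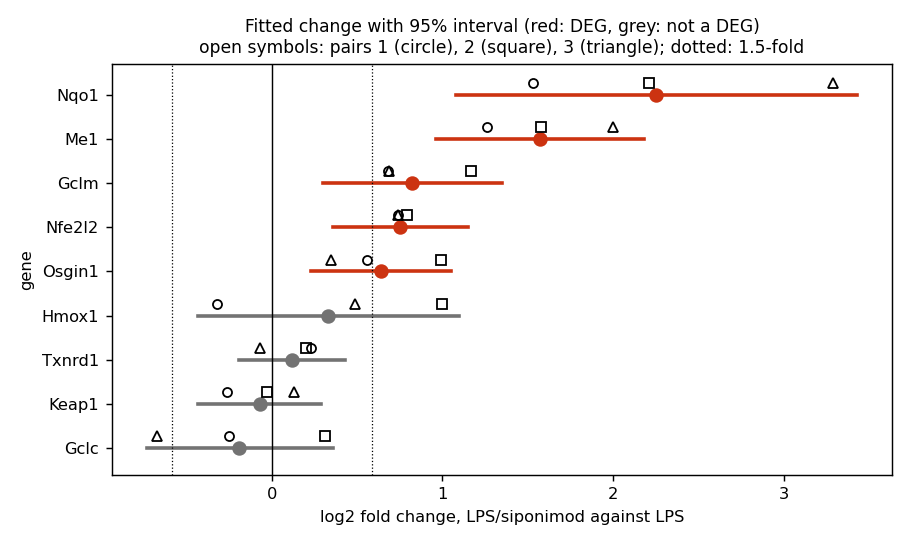
Fitted log2 FC of the 9 genes (filled points) with 95% intervals from the quasi-likelihood fit, DEGs in red and other genes in grey, and the log2 differences of the same-numbered pairs as open symbols. Nqo1 is farthest from 0 at 2.25, the pairs of Nfe2l2 nearly coincide, and those of Hmox1, Txnrd1, Keap1 and Gclc fall on both sides of 0.

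The spread among replicates differed between genes and was not shared by all of them. In the LPS libraries it ranged from 6.16% of the mean for Txnrd1 to 60.5% for Nqo1. The log2 CPM of LPS replicate 1 lay above the mean of its group by 0.92 for Nqo1, 0.51 for Me1, 0.48 for Hmox1, 0.24 for Keap1 and 0.23 for Nfe2l2, but by 0.07 for Gclm, and it lay below the mean for Gclc (-0.17), Osgin1 (-0.06) and Txnrd1 (-0.05). Gclc, Gclm, Osgin1 and Txnrd1 were instead highest in LPS replicate 3 among the LPS libraries. The genes are not replicates of a condition, and their order by library is given as a description.

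Several genes for partners, competitors and regulators of NRF2 were DEGs. Of 14 regulators on a list written from general knowledge, 11 could be tested, of which 5 were higher and 2 were lower DEGs, beside 13.6% higher and 11.7% lower among all genes tested, with a median log2 FC of 0.51. Nfe2l1, the gene of a related factor that binds the same elements and drives proteasome genes, had 251, 249 and 231 CPM with LPS and 587, 543 and 485 CPM with LPS/siponimod (log2 FC 1.14 ± 0.14 SE, edgeR FDR = 0.00692). The small MAF partners Maff and Mafg both rose. Maff increased from 21.8 ± 17.8 to 241 ± 72.7 CPM (SD of n = 3 libraries each, log2 FC 3.47 ± 0.71 SE, edgeR FDR = 0.019) and Mafg from 154 ± 13.0 to 255 ± 18.3 CPM (log2 FC 0.73 ± 0.13 SE, edgeR FDR = 0.0139). Bach1, which encodes the repressor that competes with NRF2 at AREs and that heme inactivates, had 72.7, 62.6 and 116 CPM with LPS and 230, 139 and 152 CPM with LPS/siponimod. It rose as well (log2 FC 1.05 ± 0.30 SE, edgeR FDR = 0.0457), so that the mRNA of an activator and of its competitor were both higher.

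Sqstm1 encodes the autophagy receptor that can bind KEAP1 and take it to autophagosomes, and it is itself a target of NRF2. It had 494, 196 and 214 CPM with LPS and 3530, 2630 and 2740 CPM with LPS/siponimod. The lowest LPS/siponimod library was far above the highest LPS library (log2 FC 3.30 ± 0.43 SE, edgeR FDR = 0.00737). The ubiquitin ligase subunit gene Cul3 was not a DEG (116 to 141 CPM with LPS against 131 to 136 CPM with the drug, log2 FC 0.10, edgeR FDR = 0.557). The lower DEGs were Trim21 (log2 FC -0.94, edgeR FDR = 0.00733), the gene of an interferon-inducible ubiquitin ligase that binds the SQSTM1 protein, and Dpp3 (-0.70, 0.0112), whose peptidase product can bind KEAP1. Gsk3b had an FDR of 0.0195 but a log2 FC of 0.51, under the fold threshold. Bach2 and Nfe2l3 had too few counts to be tested, and Mafk was not analysed here. Nfe2l1, Sqstm1 and Trim21 were DEGs in all 6 fits that left out 1 library. Bach1 lost its call with no filter on low counts and in all of these fits but that without LPS replicate 3, Maff without LPS replicate 1 and LPS/siponimod replicates 1 and 3, and Mafg and Dpp3 without LPS replicate 2 and LPS/siponimod replicates 1 and 3.

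**Figure D3:**
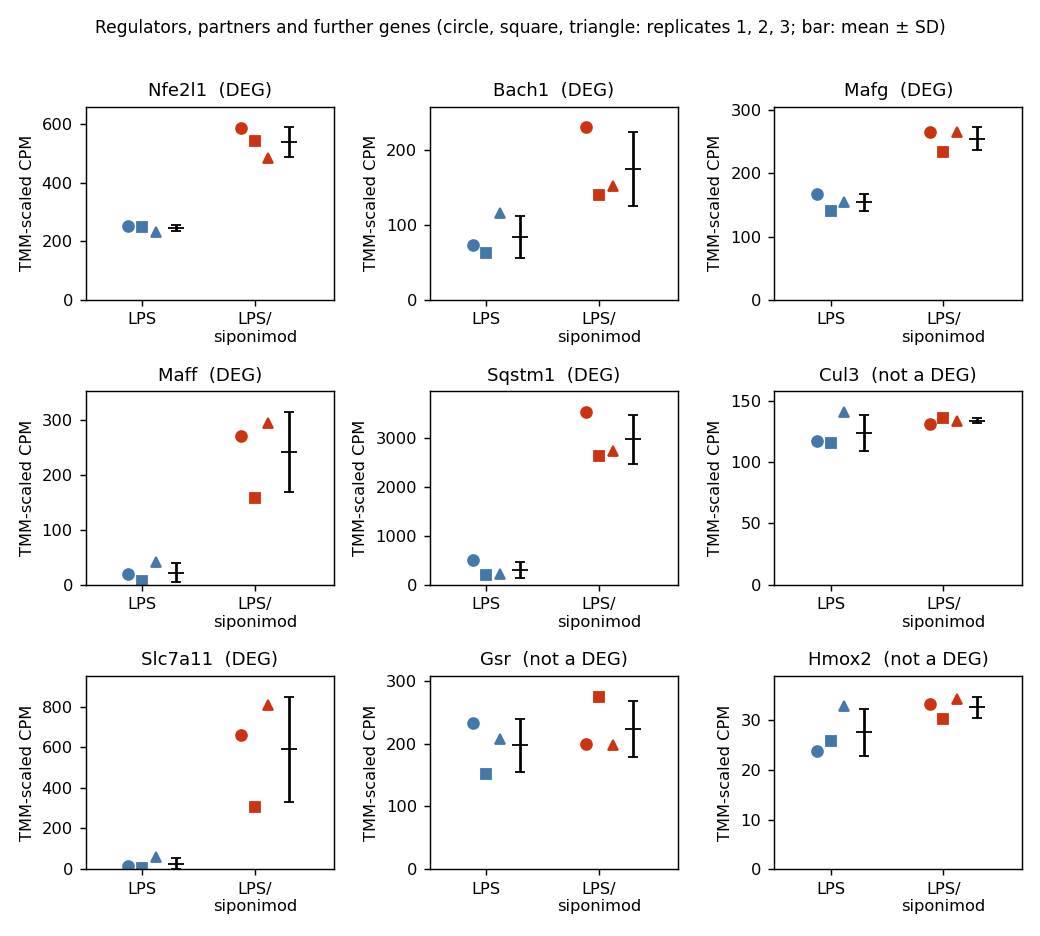
TMM-scaled CPM in each library for 6 regulators of NRF2, the cystine transporter gene Slc7a11, the glutathione reductase gene Gsr and the second heme oxygenase gene Hmox2, drawn as in the plot of the 9 genes by library. Conditions do not overlap for Nfe2l1, Bach1, Mafg, Maff, Sqstm1 and Slc7a11, and they overlap for Cul3, Gsr and Hmox2.

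Further NRF2 target genes included both DEGs and genes that were not called. Of 44 on the list, 39 were listed and 33 tested, of which 10 were higher and 2 were lower DEGs, or 36.4% called beside 25.3% of all genes tested, and the median log2 FC was 0.26. Some genes stand on several of these lists, Sqstm1, Mafg and Slc7a11 among them. Slc7a11, the cystine transporter that supplies glutathione synthesis, had 13.4, 6.80 and 58.6 CPM with LPS and 660, 304 and 806 CPM with LPS/siponimod. LPS replicate 3 was the highest LPS library and still lay below the lowest LPS/siponimod library (log2 FC 4.49 ± 0.93 SE, edgeR FDR = 0.0195). Abcc1, an exporter of glutathione conjugates, had log2 FC 0.72 (edgeR FDR = 0.00955), and Fbxo30, which encodes an F-box protein, 1.56 (0.0111).

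Besides Sqstm1 and Mafg, the other higher DEGs, named after their values were seen, were Slc6a9 (log2 FC 4.84), Akr1b8 (2.84), Idh1 (2.11), Pir (1.77) and Abcc5 (1.00). Akr1b8, an aldo-keto reductase gene, measured 1730, 364 and 886 CPM with LPS and 8750, 5260 and 7390 CPM with LPS/siponimod. The lower DEGs were Nqo2 (log2 FC -1.28, edgeR FDR = 0.0118), a relative of Nqo1 that went the opposite way to it, and the heme transporter gene Slc48a1 (-1.13, 0.0159). Familiar targets that were not DEGs included Gsr (log2 FC 0.18, edgeR FDR = 0.567), Txn1 (-0.33, 0.18), Prdx1 (0.05, 0.917) and the ferritin heavy chain gene Fth1 (0.48, 0.377). Ftl1 was not analysed here. Of the 12 DEGs, Sqstm1 was the only one that was a DEG in all 6 fits leaving out 1 library. The number of DEGs on this list was 11, 4 and 15 without LPS replicates 1, 2 and 3, and 2, 11 and 4 without LPS/siponimod replicates 1, 2 and 3. Calls among all genes also varied between these fits. They ranged from 469 higher and 182 lower of 12613 genes (without LPS replicate 2) to 1941 and 1772 of 12242 (without LPS replicate 3). With the replicate block, 12 genes of the list were higher and 3 were lower, beside 17.7% higher and 16.4% lower among all genes.

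The glutathione list held DEGs in both directions. Of 29 genes tested, 7 were higher and 4 were lower DEGs, or 37.9% called beside 25.3% of all genes tested, and the median log2 FC was -0.09. Slc3a2, the partner chain of the cystine transporter, increased from 314 ± 53.7 to 1370 ± 357 CPM (SD of n = 3 libraries each, log2 FC 2.12 ± 0.26 SE, edgeR FDR = 0.00705). The neutral amino acid transporter gene Slc1a4 had a log2 FC of 3.07 (edgeR FDR = 0.00295), and Chac1, whose product degrades glutathione, one of 3.56 (0.00295). Gss, the second enzyme of glutathione synthesis, was not a DEG (log2 FC 0.55, edgeR FDR = 0.118). The lower DEGs were Glrx (glutaredoxin, log2 FC -1.80, edgeR FDR = 0.00937), Cndp2 (-1.24, 0.0136), Oplah (5-oxoprolinase, -2.77, 0.014) and Gpx1 (glutathione peroxidase 1, -1.27, 0.0247). Slc7a11, Gpx4, Chac2 and Anpep were the remaining higher DEGs. Slc3a2, Slc1a4 and Chac1 were DEGs in all 6 fits leaving out 1 library, and the number of DEGs was 7, 4 and 15 without LPS replicates 1, 2 and 3 and 3, 8 and 4 without LPS/siponimod replicates 1, 2 and 3. Calls among all genes also varied between these fits, from 469 higher and 182 lower to 1941 and 1772. For the list, the replicate block gave 9 higher and 4 lower DEGs, beside 17.7% higher and 16.4% lower among all genes.

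Genes of the thioredoxin and peroxiredoxin system gave 2 higher and 6 lower DEGs among 25 tested, or 32% called beside 25.3% of all genes tested, with a median log2 FC of -0.30. The higher ones were Sesn2 (log2 FC 0.95, edgeR FDR = 0.0123), a stress-induced sestrin, and Txndc5 (0.77, 0.0351), a protein disulfide isomerase of the endoplasmic reticulum. Prdx2, a cytosolic peroxiredoxin, went from 219 ± 21.0 to 87.0 ± 15.9 CPM (log2 FC -1.33 ± 0.17 SE, edgeR FDR = 0.00733). Nxn (nucleoredoxin, log2 FC -2.73), Selenot (-0.91) and Sesn3 (-1.74) also fell, as did Msrb2 and Txnip. Prdx2 and Nxn were DEGs in all 6 fits leaving out 1 library. At an unadjusted p under 0.05, 7 genes of the list were higher and 9 were lower, where 5234 of the 11977 genes tested had such a p in either direction. The number of DEGs was 4, 2 and 11 without LPS replicates 1, 2 and 3, and 2, 8 and 3 without LPS/siponimod replicates 1, 2 and 3. Calls among all genes also varied between these fits, from 469 higher and 182 lower to 1941 and 1772. With the replicate number as a block the list held 4 higher and 6 lower DEGs, beside 17.7% higher and 16.4% lower among all genes.

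Among genes that supply NADPH other than Me1, 3 were higher and 4 were lower DEGs of 18 tested, or 38.9% called beside 25.3% of all genes tested, with a median log2 FC of -0.39. With the replicate block, 3 were higher and 6 were lower, beside 17.7% higher and 16.4% lower among all genes. Mthfd2, a mitochondrial enzyme of folate metabolism, had log2 FC 2.18 (edgeR FDR = 0.00174), the kinase gene Nadk2 2.07 (0.0176) and Idh1, cytosolic isocitrate dehydrogenase, 2.11 (0.0466). Idh1 measured 218, 116 and 34.6 CPM with LPS and 582, 524 and 486 CPM with LPS/siponimod, without overlap. The mitochondrial counterpart of Me1, Me2, fell (186, 126 and 108 CPM against 76.8, 80.8 and 67.8 CPM, log2 FC -0.90, edgeR FDR = 0.0308), as did Mthfd1 (-1.19, 0.013), Rpe (-0.94, 0.0259) and the mitochondrial transhydrogenase gene Nnt (-1.65, 0.0332). The pentose phosphate pathway genes Pgd (log2 FC 0.26), Tkt (0.26) and Taldo1 (-0.35) were not DEGs. Mthfd2 was a DEG in all 6 fits leaving out 1 library, but the balance of the list varied. There were 3 higher and 1 lower without LPS replicate 1, with a median log2 FC of 0.03. Without LPS replicate 2 or LPS/siponimod replicates 1 or 3 there were 1 higher and 0 lower, with medians of -0.44, -0.44 and -0.35. Without LPS replicate 3 there were 3 higher and 6 lower, and without LPS/siponimod replicate 2 there were 2 and 3, both with a median of -0.39. Calls among all genes also varied between these fits, from 469 higher and 182 lower to 1941 and 1772.

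**Figure D4:**
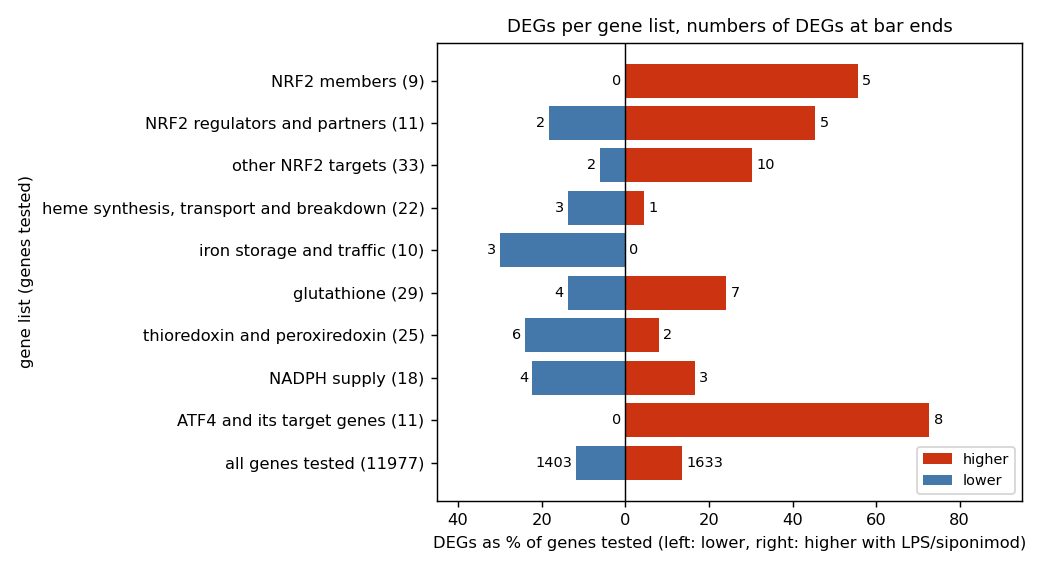
Higher DEGs (red, to the right) and lower DEGs (blue, to the left) as a percentage of the genes tested on each list, with numbers of DEGs at the bar ends and numbers of genes tested in parentheses. The 9 NRF2 genes gave 5 higher and no lower DEGs, whereas the heme, iron and thioredoxin lists held more lower than higher DEGs, and the NADPH list held 3 higher and 4 lower.

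The genes before and after heme oxygenase gave 1 higher and 3 lower DEGs among 22 tested, a share of 18.2% beside 25.3% of all genes tested, and the median log2 FC was -0.20. The lower ones were Alas1, which encodes the rate-limiting enzyme of heme synthesis outside red blood cells (154 ± 20.2 against 70.0 ± 14.8 CPM, SD of n = 3 libraries each, log2 FC -1.13, edgeR FDR = 0.012), Ppox, a later enzyme of that pathway (log2 FC -1.77, edgeR FDR = 0.00733), and Slc48a1, which carries heme out of the lysosome. The mitochondrial transporter gene Abcb10 rose (log2 FC 0.83, edgeR FDR = 0.0116). Hmox2, the constitutive heme oxygenase, had 23.9, 25.9 and 32.9 CPM with LPS and 33.2, 30.2 and 34.3 CPM with LPS/siponimod and was not a DEG (log2 FC 0.24, edgeR FDR = 0.27). The biliverdin reductase genes Blvra (log2 FC -0.62, edgeR FDR = 0.198) and Blvrb (-0.45, 0.205) were not DEGs either, but Blvra was called when replicate number entered the fit as a block (-0.61, 0.0194), and the list then held 2 higher and 6 lower DEGs beside 17.7% higher and 16.4% lower DEGs among all genes. Ppox was a DEG in all 6 fits leaving out 1 library, and the number of DEGs was 4, 1 and 7 without LPS replicates 1, 2 and 3 and 1, 4 and 2 without LPS/siponimod replicates 1, 2 and 3. Calls among all genes also varied between these fits, from 469 higher and 182 lower to 1941 and 1772. Of the 5 erythroid markers listed, Epb42 was at 0 throughout, and Alas2 and Hba-a2 did not exceed 3 counts.

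Several NRF2 target genes are also known targets of ATF4, the transcription factor of the integrated stress response, Slc7a11 and Sesn2 among them. Of 11 ATF4-related genes tested, 8 were higher DEGs and none was a lower one, beside 13.6% higher and 11.7% lower DEGs among all genes tested. The median log2 FC of the list was 2.44. At an unadjusted p under 0.05, 8 were higher and none lower as well, where 5234 of the 11977 genes tested had such a p in either direction. Atf4 itself rose (log2 FC 2.44 ± 0.19 SE, edgeR FDR = 0.00321), as did Slc7a11 and Sesn2, and the pseudokinase gene Trib3 went from 6.20 ± 2.19 to 169 ± 14.1 CPM. Atf4, Ddit3, Trib3, Chac1 and Asns were DEGs in all 6 fits leaving out 1 library, which held for none of the 9 NRF2 genes. Few genes of any kind could be called in all 6, since 469 higher and 182 lower DEGs remained among 12613 genes without LPS replicate 2. Whether ATF4 had a part in the changes of the NRF2 genes was not tested.

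**Figure D5:**
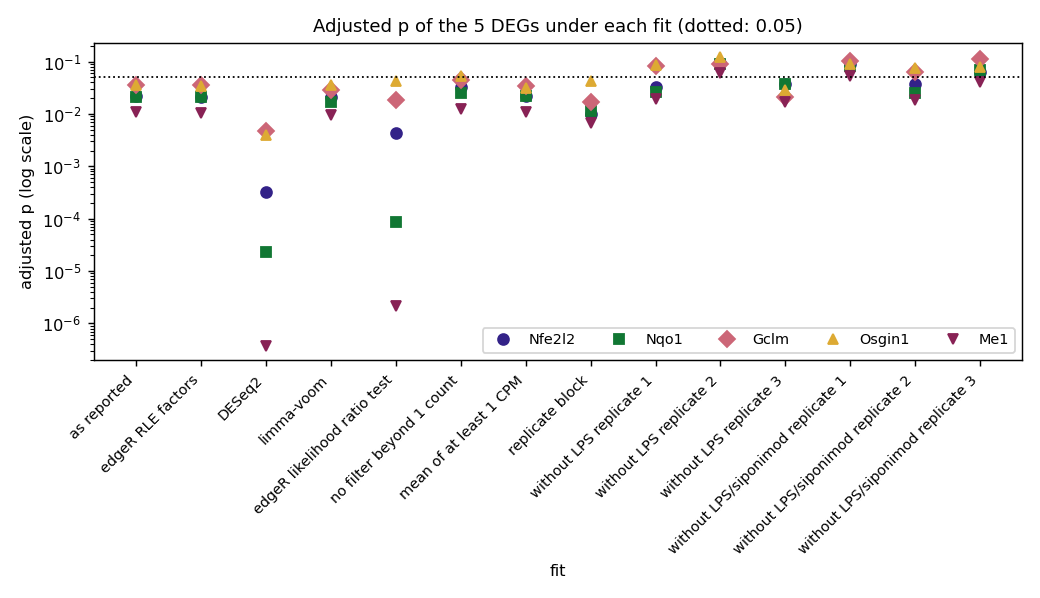
FDR (log scale) of the 5 NRF2 genes that were DEGs, as reported and under each of 13 alternative fits, with a dotted line at 0.05. All 5 genes lie above the line without LPS replicate 2 and without LPS/siponimod replicate 1, and all lie below it without LPS replicate 3 and with the replicate block.

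The calls for the 5 genes depended on which libraries entered the fit. With 1 library left out, in all 6 ways, 5 of the 9 genes were higher at an unadjusted p under 0.05. Such a p was common among all genes in these fits, in either direction together. It was held by between 3673 of 12583 genes (without LPS/siponimod replicate 1) and 6035 of 12242 (without LPS replicate 3). After adjustment over all genes, the number of DEGs among the 9 was 3 without LPS replicate 1, 0 without LPS replicate 2, 5 without LPS replicate 3, and 0, 3 and 1 without LPS/siponimod replicates 1, 2 and 3. With all libraries, 1633 of all genes tested were higher and 1403 were lower DEGs. These numbers fell to 469 and 182 without LPS replicate 2, and to 592 and 191 without LPS/siponimod replicate 1. Without LPS/siponimod replicate 2 they were 1489 and 1462, although the 9 genes went from 5 to 3. Without LPS replicate 3 they were 1941 and 1772. In the 6 fits leaving out 1 library, the log2 FC of Nqo1 stayed between 2.00 and 2.89, and that of Me1 between 1.41 and 1.89. That of Gclm stayed between 0.66 and 1.01, that of Nfe2l2 between 0.63 and 0.90 and that of Osgin1 between 0.49 and 0.73.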

How the data were processed

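According to the submitters' notes and the study's methods, single-end reads were demultiplexed with bcl2fastq (version 2.20.0.422), trimmed, and mapped to the rat genome mRatBN7.2 and counted in the CLC Genomics Workbench. The authors deposited raw total read counts per gene, 1 table per library, without normalization. How reads matching several genes, strand and introns were handled is not given in the sources used here. In 1 table, 1 row without a name or value (0 counts) was left out.

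The tests were run in edgeR (version 4.0.16) under R (version 4.3.3). Genes were kept by filterByExpr (minimum count 10, minimum total 15), TMM factors lay between 0.939 and 1.056, and glmQLFit and glmQLFTest were run on all 6 libraries with the condition as the only term. The standard error is the log2 FC divided by the square root of the F statistic, and intervals use the fit's degrees of freedom. Differences within pairs use log2 CPM with a prior count of 2. Promoter sequences are from RefSeq (GRCr8). No genome position of the count tables is given, since the gene table at hand belongs to that other build.

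Same-numbered libraries of the 2 conditions deviated together from their group means (correlations over genes of 0.42, 0.545 and 0.611), so the numbers were treated as pairs, on this evidence and not on a label. The pairing entered the differences within pairs and the replicate block, and not the main fit. Alternatives were RLE factors, DESeq2 (version 1.42.0), limma-voom (version 3.58.1), the likelihood ratio test, no filter, a mean of at least 1 CPM, the replicate block and each library left out. The test was checked on simulated counts.

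All 9 genes with a count row are named. Of each of 8 pathway lists, up to 4 DEGs per direction with the smallest adjusted p and a fixed set of central genes are named, and of each of 6 marker lists the most abundant gene and those at 0. Gsk3b, Gss, Gpx4, Chac2, Anpep, Msrb2, Txnip, Pgd, Tkt, Taldo1 and markers other than these were named after their values were seen. Slc6a9, Akr1b8, Pir and Abcc5 were likewise named afterwards. The genes and lists were chosen with earlier results of these data known. Before TMM scaling, a single count stood for between 0.0214 and 0.0263 per 1000000 counts of its library. For the 9 genes, the spread between libraries and not depth thus limits the precision. Replicates are called biological by the study, and p-values measure the spread between these 3 libraries per condition.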

Additional observations from a re-analysis of the deposited data

How the results depend on the processing

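With RLE factors, DESeq2, limma-voom, the likelihood ratio test, a mean of at least 1 CPM or the replicate block, 5 of the 9 NRF2 genes were higher DEGs and 0 were lower. Among all genes, these fits gave between 1526 and 2114 higher and between 1360 and 1960 lower DEGs. With no filter beyond 1 count 4 of the 9 were higher DEGs, Osgin1 losing its call. The replicate block changed no call among the 9 genes (Nqo1 had log2 FC 2.34 and FDR = 0.0114 in the blocked edgeR fit), and with it all genes gave 2114 higher and 1960 lower DEGs. With 1 library left out, the number of higher DEGs among the 9 genes ranged from 0 to 5, that among all genes from 469 to 1941, and that of lower DEGs among all genes from 182 to 1772. These fits hold 2 libraries in 1 condition, and the lowest numbers came without LPS replicate 2, for the 9 genes also without LPS/siponimod replicate 1. The cause was not tested. The sign of Keap1 turned without LPS replicate 1 (log2 FC 0.07, range -0.18 to 0.07 over these fits), and it was not a DEG in any of them. The other 8 genes kept their sign in all 13 alternatives. Scaling by TMM placed the median of all genes at a log2 FC of -0.021 and RLE factors at -0.018.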

Other observations

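Genes of iron storage and traffic, which handle the iron that heme oxygenase releases, gave 3 lower DEGs among 10 tested and no higher one. The share of 30% called lies near the 25.3% of all genes tested, of which 11.7% were lower and 13.6% higher DEGs. The median log2 FC of the list was -0.54. Its 3 lower DEGs were Slc39a14, an importer of zinc and iron (log2 FC -1.12, edgeR FDR = 0.0124), the divalent metal transporter gene Slc11a2 (-0.99, 0.0151) and the transferrin receptor gene Tfrc (-1.88, 0.0204). Tfrc had 1120, 536 and 410 CPM with LPS and 201, 159 and 200 CPM with LPS/siponimod, without overlap. At an unadjusted p under 0.05, 2 genes of the list were higher and 5 were lower, where 5234 of the 11977 genes tested had such a p in either direction. DESeq2 called 1 higher and 5 lower, limma-voom 0 and 3, and the quasi-likelihood fit with the replicate block 1 and 5. Among all 11977 genes they called 1974 and 1924, 1657 and 1442, and 2114 and 1960. The number of DEGs on the list was 3, 1 and 5 without LPS replicates 1, 2 and 3, and 0, 2 and 0 without LPS/siponimod replicates 1, 2 and 3. Calls among all genes also varied between these fits, from 469 higher and 182 lower to 1941 and 1772. Ferritin heavy chain reads (Fth1) were 28400, 12000 and 19300 CPM with LPS and 34000, 23100 and 26500 CPM with LPS/siponimod. They overlapped between the conditions, and LPS replicate 2 was the lowest for Fth1 as it was for Hmox1.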
